A study of Rattus norvegicus with 36 samples.

Results

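Sialic acid and fucose are the sugars that most often end the glycan chains of intestinal glycoproteins, glycolipids and mucins. The 10 rat genes described here make or attach them. They comprised the genes that supply activated sialic acid (*Gne*, *Nans*, *Cmas* and *Cmah*), 4 sialyltransferases (*St3gal4*, *St6gal1*, *St6galnac1* and *St6galnac6*) and 2 fucosyltransferases (*Fut2* and *Fut8*), taken as 10 of the 24773 rows of a table of raw read counts. The set was chosen by measured values, namely lower *Cmah* in the ileum and higher *Fut2* in the colon of rats with longer diabetes. For that reason every value of the 10 genes that compares that group with the others is given as a description, while the D1M group and the difference between colon and ileum were tested. For *Cmah* and *Fut2* themselves those comparisons share ND or D3M libraries with the choice, so their values are also a description. Colon against ileum within the D1M rats shares no library with the choice if its reference was ND, but that reference was not stated.

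The libraries came from 18 male UCD-T2DM rats, a polygenic strain in which type 2 diabetes appears spontaneously on standard chow. The ND group held 6 nondiabetic rats aged 70 days with fasting glucose of 85.6 to 101.6 mg/dl. The D1M group held 6 rats aged 168 to 172 days, diabetic for 22 to 23 days, with fasting glucose of 93.6 to 178.6 mg/dl, and the D3M group held 6 rats aged 172 to 173 days, diabetic for 88 to 116 days, with fasting glucose of 165 to 330.6 mg/dl. Each rat was fasted and gave 1 RNA-seq library of whole distal ileum and 1 of whole proximal colon. The ND rats were younger and no nondiabetic rat of similar age was sequenced, so age and diabetes cannot be told apart in any comparison with ND.

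Sialic acid is built in the cytosol from a sugar nucleotide and phosphoenolpyruvate, activated by coupling to CMP in the nucleus and carried into the Golgi, where sialyltransferases place it on glycans according to the acceptor and linkage they recognise. In the gut it lends mucins their negative charge and is both a food and a binding site for bacteria. Fucose is attached from GDP-fucose, either at the ends of chains, where it forms blood group antigens that resident bacteria can release and use, or at the core of N-glycans.

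Library totals ran from 12279059 to 21510043 counts in ileum and from 10024041 to 18299050 in colon, and each of the 10 genes passed the filter on low counts in both tissues. Levels are CPM, a gene's count scaled to the size of its library by TMM over all 36 libraries, and differences are log2 fold changes ± SE. Expression of a gene is compared between samples only, since counts were not divided by transcript length. The tissue labels were checked with 10 ileal enterocyte genes, whose summed level was 20497 to 57187 CPM in ileum and 76.6 to 13307 CPM in colon. A list of 10 colonocyte genes summed to 24209 to 45714 CPM in colon and 3076 to 10043 CPM in ileum. In that list the means of *Ceacam1* (444 CPM in ileum, 27.8 CPM in colon) and *Aqp4* (40.2 and 2.18 CPM) ran the other way. *Hoxb13* was nearly absent from both tissues, and the remaining colonocyte genes had higher means in colon. Within those lists, the bile acid carrier *Fabp6* stood at 8193 CPM in the colon of ND rat K4028 and at 1.89 to 19.9 CPM in every other colon, and the colonic carbonic anhydrase *Car1* stood at 3864 CPM in the ileum library of ND rat K4040 and 1495 CPM in that of D3M rat P762. These libraries stand apart from their tissue in markers of the neighbouring tissue, and results that rest on K4028 or K4040 are given with and without them. B cell genes (a fixed list less *Cd74*, which epithelium can also make) summed to 463 to 1246 CPM in 6 ileum libraries (3 ND, 2 D1M and 1 D3M) and 33.6 to 60.3 CPM in the rest. In whole tissue, fewer cells of a type and less RNA per cell cannot be told apart.

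The first comparison was of colon with ileum over all 36 libraries, in a fit without a term for the rat. *Gne*, *Nans*, *Cmas*, *St6galnac6* and *Fut2* were higher in colon, *Cmah*, *St3gal4*, *St6gal1* and *St6galnac1* were lower, and *Fut8* did not pass the test. By edgeR's quasi-likelihood test with Benjamini-Hochberg adjustment (FDR under 0.05), 9 of the 10 genes were called, 5 higher and 4 lower and *Cmah* and *Fut2* among them, where 73.2% of all 13697 genes tested were called. For 5 of the genes (*Gne*, *Nans*, *Cmas*, *St6galnac1* and *St6galnac6*) the ranges of the 18 colon and 18 ileum libraries did not overlap, against 14.6% of all genes. The median log2 fold change of the set was 0.15, and that of all genes was 0.03.

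**Figure D1:**
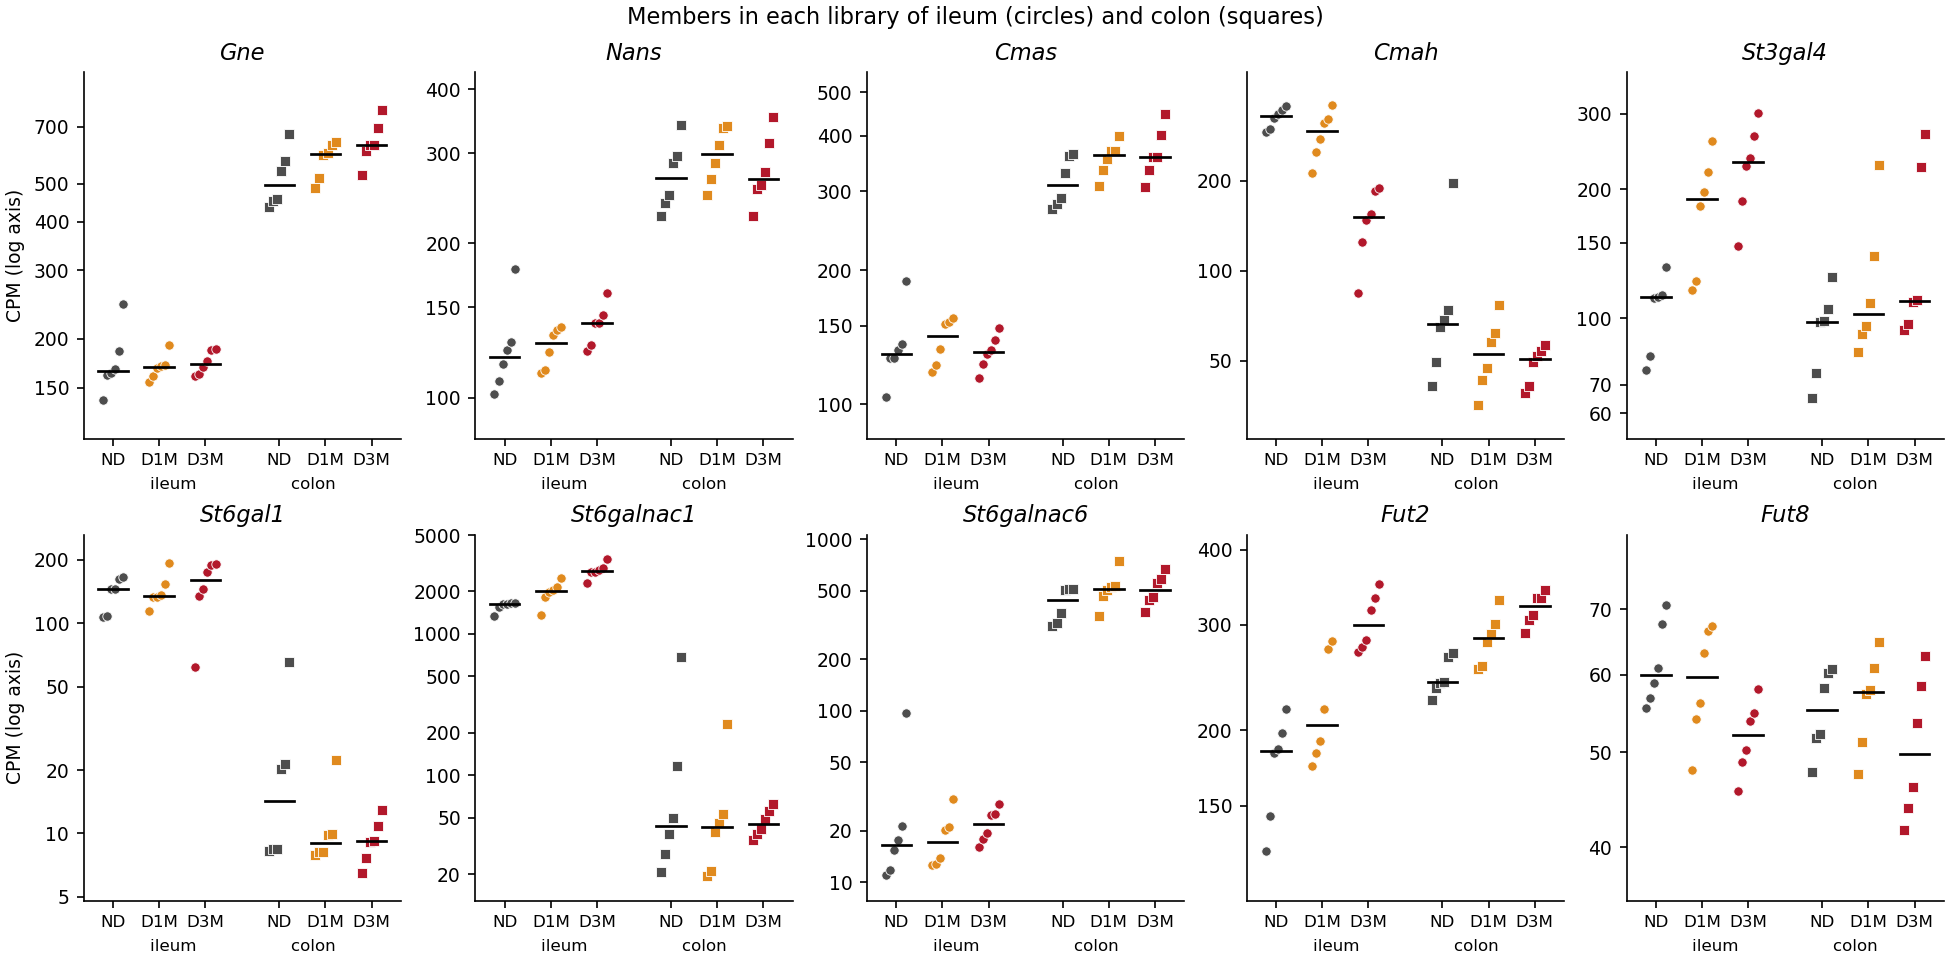
CPM on a log axis for each of the 10 genes in every library, with 6 libraries per group of ileum (circles) and colon (squares) and a bar at the group median. Ileal *Cmah* lies at 84.1 to 189.7 CPM in D3M rats and above 213 CPM in the ND and D1M rats, and colonic *Fut2* lies above 290 CPM in D3M rats and at most at 269.6 CPM in ND rats.

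The enzymes at the start of the pathway were all higher in colon. *Gne* makes the first committed precursor of sialic acid and is feedback controlled. It lay between 139.1 and 245.5 CPM in ileum, with a median of 168.9 CPM, and between 437.0 and 771.7 CPM in colon, with a median of 597.1 CPM. Every colon library was above every ileum library, and *Gne* was 3.30-fold higher in colon (log2 1.72 ± 0.07, FDR = 1.64e-20). *Nans*, which condenses the precursor with phosphoenolpyruvate, was 2.23-fold higher in colon (1.16 ± 0.06, FDR = 2.14e-18), and *Cmas*, which couples the finished acid to CMP, was 2.60-fold higher (1.38 ± 0.06, FDR = 6.94e-19). All 3 were higher in the colon than in the ileum of the same rat in 18 of 18 rats, with median colon to ileum ratios of 3.41, 2.19 and 2.61 in that order.

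*Cmah*, the hydroxylase that turns the activated acetyl form of sialic acid into the glycolyl form, ran against the other supply enzymes. Its ileal level was 84.1 to 357.7 CPM with a median of 283 CPM, and its colonic level was 35.4 to 196.9 CPM with a median of 52.8 CPM. The ranges met through the D3M ileum libraries and the colon library of rat K4028. Expression in colon was 0.253 of that in ileum (log2 -1.98 ± 0.17) and was lower in 18 of 18 rats. Within the D1M rats, which are apart from the choice only if its reference was ND, the log2 fold change was -2.58 ± 0.33 (edgeR FDR = 2.55e-07). Without K4028 colon and K4040 ileum the log2 fold change was -2.15.

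The order of the 6 group means of *Cmah* was ileum ND, ileum D1M, ileum D3M, colon ND, colon D1M and colon D3M. Neighbours in that order had overlapping ranges except ileum D1M and ileum D3M, and without K4028 also ileum D3M (84.1 to 189.7 CPM) and colon ND (41.0 to 73.8 CPM). For *Gne*, *Nans* and *Cmas*, the sole break in the order of groups fell between colon and ileum.

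Promoter sequence was printed for the 3 supply enzymes that were higher in colon, for *St6galnac1*, which was lower there, and for *Fut2*, which was also higher. Each is the 150 bases before the transcript start in RefSeq (build GRCr8), 5′ to 3′ on the gene's strand, with CG pairs in capitals. RefSeq windows matched 8 of the 10 genes by symbol and none was matched for *Cmah* and *St6galnac6*. The *Gne* window is chr5:63093186-63093335 (minus strand), *Nans* chr5:65575874-65576023 (plus), *Cmas* chr4:177449651-177449800 (plus), *St6galnac1* chr10:102481877-102482026 (minus) and *Fut2* chr1:105276028-105276177 (minus).
Gne: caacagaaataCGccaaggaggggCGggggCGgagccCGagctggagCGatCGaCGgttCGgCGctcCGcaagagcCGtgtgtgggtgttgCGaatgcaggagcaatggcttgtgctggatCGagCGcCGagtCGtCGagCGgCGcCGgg
Nans: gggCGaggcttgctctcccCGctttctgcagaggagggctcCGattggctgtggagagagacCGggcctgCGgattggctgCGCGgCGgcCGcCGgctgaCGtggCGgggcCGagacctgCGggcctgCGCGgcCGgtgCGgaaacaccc
Cmas: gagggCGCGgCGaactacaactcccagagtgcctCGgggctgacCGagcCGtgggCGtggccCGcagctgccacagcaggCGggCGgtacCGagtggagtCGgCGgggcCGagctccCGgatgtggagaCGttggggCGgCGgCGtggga
St6galnac1: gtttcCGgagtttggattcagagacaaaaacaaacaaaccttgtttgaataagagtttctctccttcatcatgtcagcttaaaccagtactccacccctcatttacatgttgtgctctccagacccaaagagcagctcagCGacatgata
Fut2: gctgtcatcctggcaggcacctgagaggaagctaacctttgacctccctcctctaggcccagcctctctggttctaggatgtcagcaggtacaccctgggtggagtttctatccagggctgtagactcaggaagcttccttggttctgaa

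The windows of *Gne*, *Nans* and *Cmas* held 20, 18 and 19 CG pairs, with a GC content of 67.3%, 74.0% and 74.0%. The median window in RefSeq held 4 CG pairs at a GC content of 53.3%, and 6.13%, 9.13% and 7.62% of the 27456 genes with a window had at least as many pairs as these. In contrast, *St6galnac1* held 2 pairs, which 72.0% of genes reached, *St6gal1* held 1 and *Fut2*, although higher in colon, held 0. *St3gal4* has 3 annotated starts with 2, 14 and 1 pairs, and *Fut8* has 2 with 9 and 21. CG was counted on the printed strand and reads the same on the other strand. These counts describe the letters of the windows and were not tested against expression.

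The sialyltransferases split by tissue. *St6galnac1*, which caps the first sugar of mucin O-glycans in goblet cells and so makes the sialyl-Tn antigen, lay between 1345 and 3388 CPM in ileum and between 19.3 and 690.5 CPM in colon. All ileum libraries were above all colon libraries (log2 -4.75 ± 0.41, FDR = 6.57e-12). The highest colon libraries were those of rats K4028 (690.5 CPM), K3978 (228.6 CPM) and K4040 (116.2 CPM), and the log2 fold change without K4028 colon and K4040 ileum was -5.19. Summed goblet cell markers (10 of 12 genes in the table) were 4112 to 10316 CPM in ileum and 3433 to 7795 CPM in colon, ranges that overlapped. The sums hide markers that ran in opposite directions. In mean CPM of ileum and colon, *Fcgbp* (1956 and 671), *Zg16* (2312 and 886), *Clca1* (1013 and 247) and *Tff3* (824 and 246) were lower in colon. *Agr2* (636 and 2465), *Spdef* (75.9 and 279), *Spink4* (130 and 214), *Atoh1* (42.9 and 58.2) and *Retnlb* (0.019 and 1.06) were higher, and *Sytl2* was level. The part of goblet cells in the *St6galnac1* result was not tested.

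*St6galnac6* adds a sialic acid to gangliosides and related glycans that already carry one. It ran in the opposite direction, at 11.0 to 96.5 CPM in ileum and 311.9 to 752.0 CPM in colon, with no overlap. The colon level was 22.8-fold that of the ileum (log2 4.51 ± 0.23, FDR = 1.59e-17). The highest ileum library was K4040, the one with the most *Car1*, and the log2 fold change without K4040 ileum and K4028 colon was 4.78.

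*St6gal1* sialylates galactose at the ends of N-glycans and is abundant in liver and B cells. It was lower in colon (log2 -3.37 ± 0.26, FDR = 2.55e-13), at 6.5 to 65.6 CPM against 62.0 to 193.8 CPM in ileum. The ranges met at the colon library of K4028 and the lowest ileum library, that of D3M rat K3980. Apart from K4028, the colon libraries highest in *St6gal1* were K3989, K4048 and K4047 at 20.2 to 22.5 CPM. The same 3 libraries had the highest B cell sums of the colon, 904 to 1169 CPM. With the B cell score as a covariate the log2 fold change of colon against ileum was -3.38 (edgeR FDR = 5.33e-13). That score was centred within each tissue, so this fit cannot take up a B cell difference between the tissues. The part of B cells in the tissue difference was not tested. *St3gal4*, which sialylates galactose in another linkage and takes part in selectin ligands, was lower in colon by a smaller amount (log2 -0.40 ± 0.16, FDR = 0.0260). Its ranges of 75.7 to 301.6 CPM in ileum and 65.1 to 268.5 CPM in colon overlapped widely, it was lower in colon in 13 of 18 rats, and the call was lost without rat K3978 (FDR = 0.0504), K3986 (FDR = 0.0657) or P762 (FDR = 0.0609).

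*Fut2*, the secretor enzyme that builds the H antigen on intestinal mucins, was 1.27-fold higher in colon over all rats (log2 0.35 ± 0.07). Within the D1M rats the log2 fold change was 0.26 ± 0.15 and did not pass (edgeR FDR = 0.149). It was higher in the colon of 15 of 18 rats, and the median ratio of colon to ileum was 1.38 for ND rats, 1.28 for D1M rats and 1.07 for D3M rats. *Fut8*, which adds the core fucose of N-glycans, lay at 45.7 to 70.6 CPM in ileum and 41.7 to 64.7 CPM in colon. Its log2 fold change of -0.04 ± 0.05 (FDR = 0.429) had an interval of 2 SE on each side from -0.14 to 0.05. Among the 10 genes *Fut8* thus had the narrowest interval in this comparison.

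Flow cell was a term of the fit, and 5 rats had both libraries on the same flow cell. The means of their colon minus ileum log2 differences were 1.67, 1.70 and 1.56 for *Gne* on flow cells 1, 2 and 3 (2, 1 and 2 rats), -2.35, -2.02 and -1.70 for *Cmah*, 4.74, 4.89 and 4.67 for *St6galnac6*, and 0.30, 0.83 and 0.56 for *Fut2*. *St6galnac1* gave -5.50, -4.96 and -1.77. The 2 rats on flow cell 3 were K4028 and K3978, whose colon libraries were the highest in *St6galnac1*, and K4028 colon was also the highest in *Cmah*. Every one of these means kept the direction found over all rats.

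**Figure D2:**
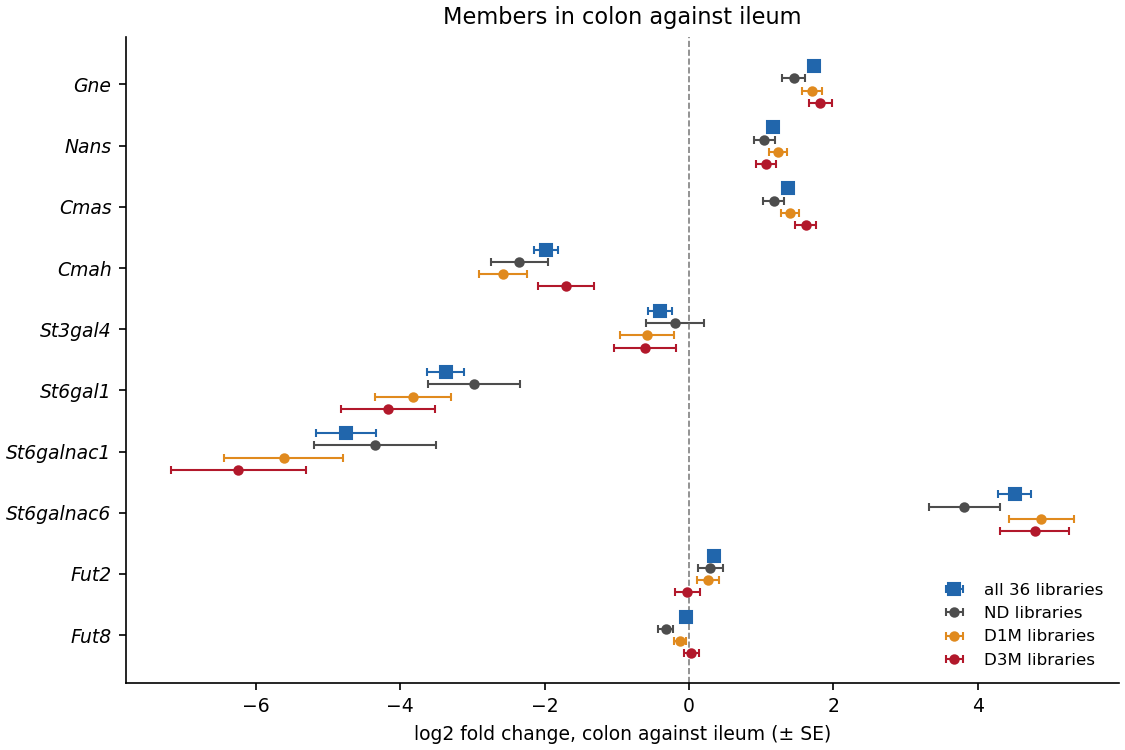
Log2 fold change of colon against ileum with its SE for each gene, over all 36 libraries (squares) and within the ND, D1M and D3M libraries (circles). *St6galnac6* (4.51) and *St6galnac1* (-4.75) lie at opposite ends, and *Fut8* (-0.04) lies next to 0.

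The second comparison asked whether the genes differed in the ileum soon after diabetes onset, D1M against ND. None of the 10 was called by edgeR, where 0.0154% of 13026 genes (2) were called. At an unadjusted p under 0.05 there were 2 (*St3gal4* and *St6galnac1*, both with higher D1M values), against 1087 of all 13026 genes. DESeq2 called 1 of these 2, *St3gal4*, and limma voom called 0. The share of all genes that DESeq2 or voom called was not counted, so the edgeR share is no measure for that call. No gene had groups that did not overlap, which was the case for 0.583% of all genes. The median log2 fold change of the set was -0.06 against -0.03 for all genes.

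*St3gal4* had 75.7, 111.8 and 131.7 CPM as the lowest, median and highest ND values in ileum and 116.5, 190.1 and 258.7 CPM as those of D1M. In 4 of 6 D1M rats it exceeded every ND rat. The log2 fold change was 0.78 ± 0.23 (FDR = 0.406 by edgeR), with an adjusted p of 0.0492 by DESeq2. The differences within flow cells 1, 2 and 3 were 0.51, 0.89 and 0.70. These flow cells held 3, 1 and 2 D1M ileum libraries and 1, 3 and 2 ND ileum libraries. *St6galnac1* had values of 1345, 1624 and 1652 CPM in ND and 1364, 2012 and 2470 CPM in D1M. It exceeded every ND rat in 5 of 6 D1M rats (0.32 ± 0.12, FDR = 0.524 by edgeR).

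None of the supply enzymes passed in D1M ileum. *Cmah* ran from 290.9 to 356.5 CPM in ND, with a median of 329.8 CPM, and from 213.2 to 357.7 CPM in D1M, with a median of 294.1 CPM. The D1M range covered the whole ND range, and 3 of 6 D1M rats were below every ND rat and 1 was above. The log2 fold change was -0.33 ± 0.16, with an interval of 2 SE on each side from -0.65 to -0.013. That interval is approximate, since *Cmah* did not reach an unadjusted p under 0.05 by edgeR. Fold changes of *Gne* (-0.11 ± 0.11), *Nans* (-0.06 ± 0.11) and *Cmas* (-0.05 ± 0.11) were within their SE or nearly so and turned to 0.02, 0.06 and 0.06 without K4040, the ND rat highest in all 3. *St6galnac6* likewise went from -0.76 ± 0.45 to 0.16. *St6gal1* (-0.04 ± 0.23), *Fut2* (0.24 ± 0.15) and *Fut8* (-0.17 ± 0.08) also did not pass.

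In the ileum of D3M rats, values were lower for *Cmah* and *Fut8* and higher for *St6galnac1*, *St3gal4* and *Fut2* than in ND rats. These were the 5 genes called by edgeR, where 12.5% of 13026 genes were called, and 4 of them (all but *Fut8*) had groups that did not overlap, where 6.26% of genes did not. Since this contrast was in view when the genes were chosen, the counts are a description. The median log2 fold change of all 10 was -0.10, and that of all genes was -0.08.

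*Cmah* in D3M ileum was 84.1 CPM at its lowest, 151.6 CPM at the median and 189.7 CPM at its highest. Every D3M rat lay below every ND and D1M rat. The log2 fold change was -1.39 ± 0.17 against ND and -1.06 ± 0.15 against D1M, a group of nearly the same age. Within flow cells 1 and 3 the difference from ND was -1.15 and -1.47, and from D1M it was -1.12 and -1.06. Flow cell 1 held 4 D3M and 3 D1M ileum libraries but only 1 of ND, and flow cell 3 held 2 of each group. There was no D3M ileum library on flow cell 2. The lowest value came from rat P762, diabetic for 116 days with fasting glucose of 252.8 mg/dl, whose ileum library held *Car1* at 1495 CPM, and without it the log2 fold changes were -1.21 against ND and -0.92 against D1M. The highest came from rat P780, diabetic for 88 days with the lowest glucose of the group, 165 mg/dl. The other 4 rats, each diabetic for 101 days, lay between them at 124 to 184 CPM. The order was not tested.

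Before *Cmah* in the pathway, *Gne* (-0.14 ± 0.12), *Nans* (0.02 ± 0.12) and *Cmas* (-0.22 ± 0.12) had D3M values inside an ND range whose top was set by K4040. Without K4040 the log2 fold changes were 0.00020, 0.16 and -0.084. *Nans* then ran from 101.9 to 128.3 CPM in ND and from 123.3 to 160.1 CPM in D3M, where 4 of 6 rats, at 139.6 CPM or more, were above every ND rat. The highest D3M values of *Gne* (188.5 CPM) and *Cmas* (148.6 CPM) likewise exceeded the highest of the other ND rats (185.8 and 136.3 CPM). *Cmah* was thus the only gene of the 4 supply enzymes to be called in this contrast.

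*St6galnac1* reached 2287, 2782 and 3388 CPM (lowest, median and highest) in D3M ileum. Its log2 fold change was 0.80 ± 0.13 against ND and 0.48 ± 0.11 against D1M, so that the D1M median stood between the other groups. *St3gal4* was 147.4, 231.6 and 301.6 CPM, with 1.04 ± 0.25 against ND and 0.26 ± 0.21 against D1M. Both genes lay above the whole ND range in every D3M rat. *St6gal1* (-0.07 ± 0.24) and *St6galnac6* (-0.65 ± 0.50) had overlapping groups, and *St6galnac6* went to 0.34 without K4040 ileum.

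*Fut2* in ileum ran from 126.0 to 217.2 CPM in ND (median 185.1 CPM), from 174.6 to 281.5 CPM in D1M (median 204.5 CPM) and from 270.6 to 350.2 CPM in D3M (median 300.2 CPM). The D3M rats were above every ND rat and overlapped the D1M rats. Log2 fold changes were 0.64 ± 0.16 against ND and 0.40 ± 0.14 against D1M. Differences from ND in printed CPM, which is scaled over both tissues, were 0.68 and 0.81 within flow cells 1 and 3. Only 1 ND ileum library was on flow cell 1. The fitted value against ND was 0.55, and no longer called, without ND rat K4028. *Fut8* ran from 55.5 to 70.6 CPM in ND and from 45.7 to 58.0 CPM in D3M, and 5 of 6 D3M rats were below every ND rat (-0.45 ± 0.09).

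Against D1M, 2 genes (*Cmah* and *St6galnac1*) were called in D3M ileum, where 2.22% of genes were called, and *Cmah* alone had groups that did not overlap, where 1.64% of genes did not. The call of *St6galnac1* was lost without any of 10 single rats (D1M rats K3978, K3988, K3989 and K3990, D3M rats K3961, K3977, K3980, P762 and P780, and ND rat K4038), which leaves 1 gene called, and *Fut8* was added without D3M rat K3959.

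Summed epithelial marker RNA was highest in D3M ileum. The 9 epithelium markers tested, of which 3 were higher and 1 lower in D3M than in ND, summed to 14908 to 20102 CPM in ND, 17825 to 22243 CPM in D1M and 20872 to 28204 CPM in D3M, and the ileal enterocyte list to 20497 to 34000, 31139 to 37626 and 29775 to 57187 CPM. Of the 10 ileal enterocyte genes 7 were higher in D3M than in ND, 3 were higher in D3M than in D1M, and 0 differed between D1M and ND. With the epithelium score as a covariate, a fit chosen after the data had been seen, the D3M values against ND were -1.43 for *Cmah*, 0.74 for *Fut2*, 1.11 for *St3gal4*, 0.76 for *St6galnac1* and -0.40 for *Fut8*. With the B cell score in its place they were -1.40, 0.58, 0.91, 0.78 and -0.45 in the same order. Goblet cell markers summed to 4112 to 8530, 5353 to 10316 and 4632 to 8854 CPM in the 3 groups, and 0 of the 9 tested were called by edgeR between D3M and ND.

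**Figure D3:**
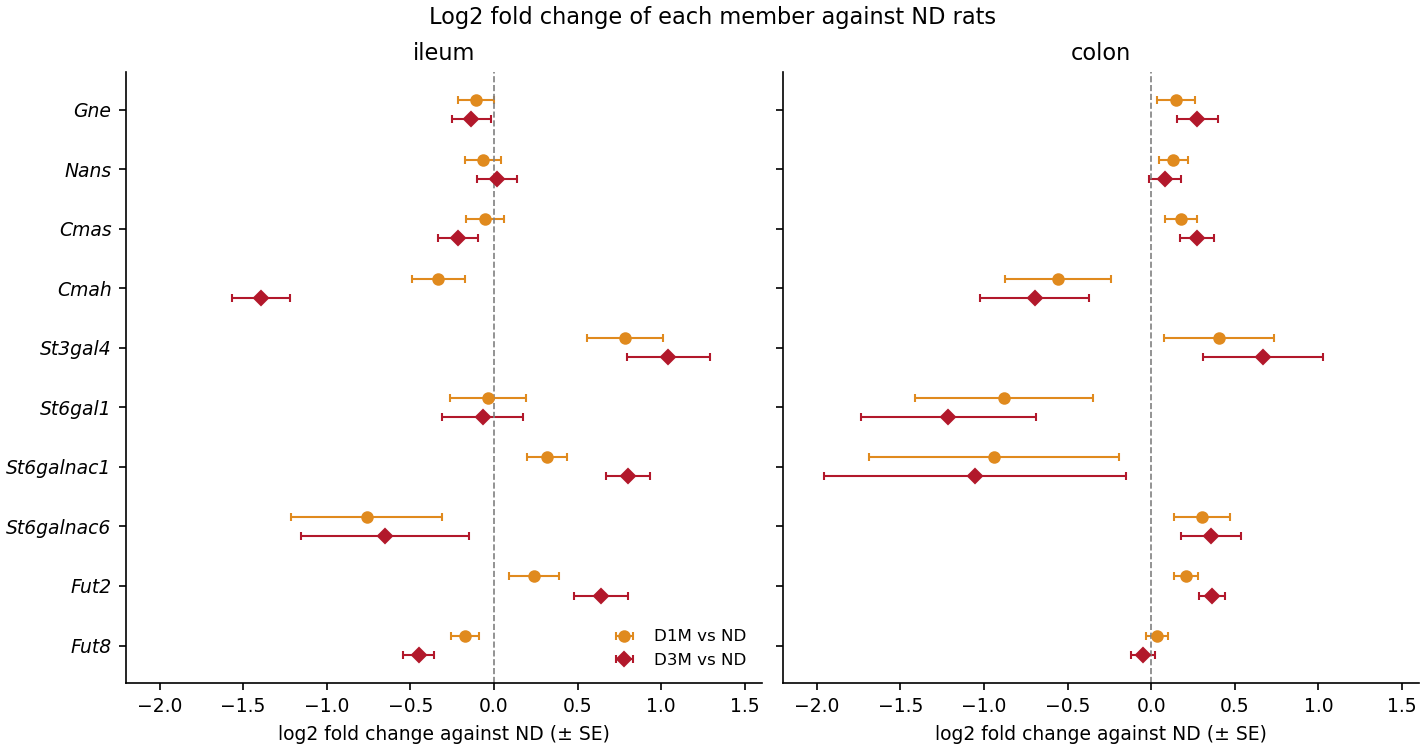
Log2 fold change with its SE of each gene in D1M (circles) and D3M (diamonds) rats against ND rats, in ileum (left) and colon (right). Ileal *Cmah* moves from -0.33 in D1M to -1.39 in D3M, and colonic *Fut2* from 0.21 to 0.36.

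In the colon, D1M against ND gave 0 of 10 genes called by edgeR, 0 by DESeq2 and 0 by limma voom, where 0% of 12906 genes were called by edgeR. At an unadjusted p under 0.05 there was 1 gene, *Fut2*, against 602 of all 12906 genes. No gene had groups that did not overlap, which held for 0.139% of genes. The median log2 fold change of the set was 0.14 and that of all genes was -0.00.

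*Fut2* in colon ran from 224.6 to 269.6 CPM in ND (median 240.7 CPM), from 252.7 to 329.8 CPM in D1M (median 284.8 CPM) and from 290.8 to 342.4 CPM in D3M (median 321.7 CPM). In D1M, 4 of 6 rats were above every ND rat (0.21 ± 0.07, FDR = 0.952 by edgeR), and the within flow cell differences were 0.21, 0.21 and 0.20. In D3M all 6 rats were above every ND rat. The D3M value was 0.36 ± 0.08 against ND and 0.15 ± 0.08 against D1M, and the differences from ND were 0.33 and 0.42 within flow cells 2 and 3. Flow cell 1 held no D3M colon library.

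For D3M against ND in colon, 0.0155% of 12906 genes were called by edgeR and 0 of the 10 genes were. At an unadjusted p under 0.05 there were 4 (*Gne*, *Cmas*, *St6gal1* and *Fut2*), against 1292 of all 12906 genes. DESeq2 and limma voom each called 1, *Fut2*. The groups of *Fut2* were the only ones of the 10 that did not overlap, as was the case for 0.961% of genes. Higher *Fut2* in D3M colon was used to choose the set, so its calls and its lack of overlap are a description. D3M against D1M in colon gave 0 genes by edgeR, DESeq2 and limma voom, where 0% of genes were called by edgeR. It gave 0 at an unadjusted p under 0.05, against 682 of all 12906 genes.

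The supply enzymes in colon had D3M values of 0.28 ± 0.12 (*Gne*), 0.08 ± 0.09 (*Nans*) and 0.27 ± 0.10 (*Cmas*) against ND, and D1M values of 0.15 ± 0.12, 0.13 ± 0.09 and 0.18 ± 0.09. *Gne* ran from 437.0 to 670.5 CPM in ND, from 488.9 to 641.5 CPM in D1M and from 526.2 to 771.7 CPM in D3M. All 3 genes had groups that overlapped.

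The colonic values of *Cmah*, *St6galnac1* and *St6gal1* rested on rat K4028, the colon library high in *Fabp6*. *Cmah* was 196.9 CPM there and 41.0 to 73.8 CPM in the other ND rats, *St6galnac1* was 690.5 CPM against 20.6 to 116.2 CPM, and *St6gal1* was 65.6 CPM against 8.21 to 21.3 CPM. Without K4028 colon and K4040 ileum, the D1M values against ND went from -0.55 to -0.15 for *Cmah*, from -0.94 to 0.29 for *St6galnac1* and from -0.88 to -0.16 for *St6gal1*, and the D3M values from -0.70 to -0.22, from -1.05 to 0.07 and from -1.21 to -0.44. *Fut2* was 0.22 and 0.37 without them, against 0.21 and 0.36.

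*St3gal4* in colon was 268.5 CPM in D3M rat K3977, 228.0 CPM in D1M rat K3987 and 224.9 CPM in D3M rat K3980, and at most 139.4 CPM in the others. Its fold changes against ND of 0.40 ± 0.33 in D1M and 0.67 ± 0.36 in D3M had wide errors accordingly. *St6galnac6* gave 0.30 ± 0.17 and 0.36 ± 0.18, and *Fut8* gave 0.03 ± 0.07 and -0.05 ± 0.07.

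**Figure D4:**
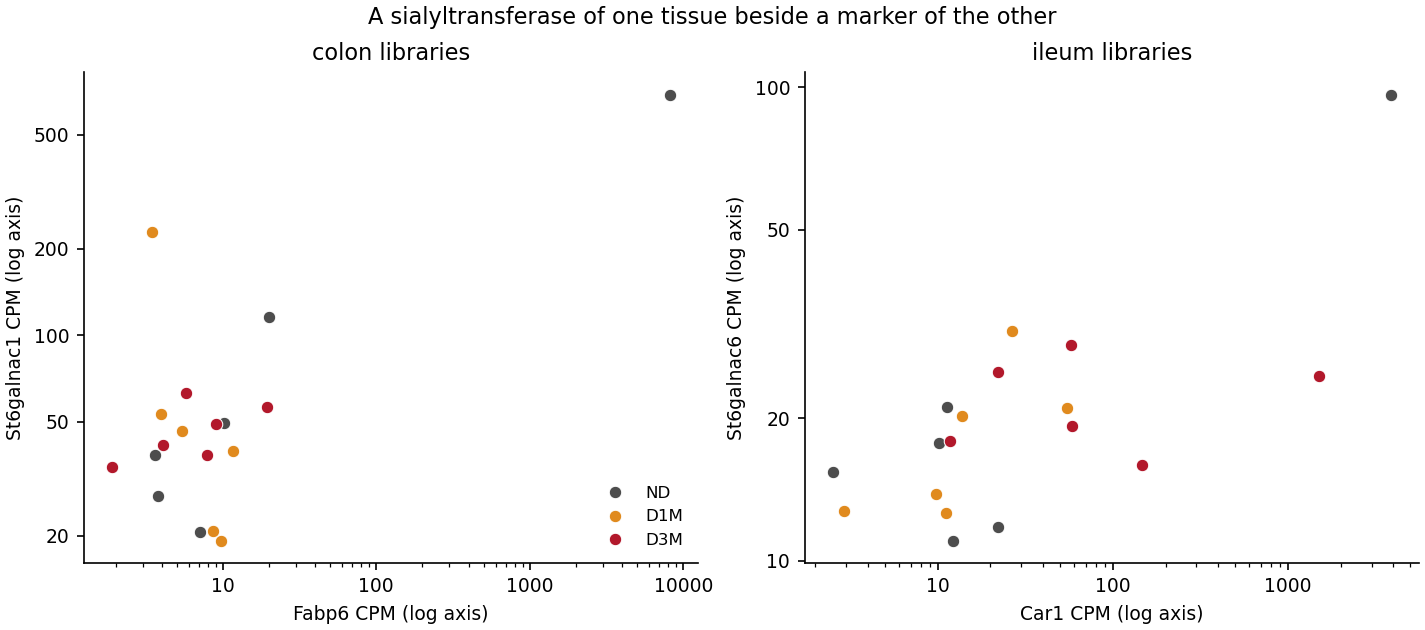
*St6galnac1* against the ileal marker *Fabp6* in colon libraries (left) and *St6galnac6* against the colonic marker *Car1* in ileum libraries (right), in CPM on log axes, coloured by group. The ND libraries at the far right are K4028 colon (*Fabp6* 8193 CPM, *St6galnac1* 690.5 CPM) and K4040 ileum (*Car1* 3864 CPM, *St6galnac6* 96.5 CPM), while *St6galnac1* was also 228.6 CPM in D1M colon K3978 with *Fabp6* at 3.4 CPM.

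Whether the D1M difference from ND was of another size in colon than in ileum was tested for each gene. edgeR called 0 of 10, with 0% of 13697 genes called, as did DESeq2 and limma voom. One gene, *St6galnac6*, had an unadjusted p under 0.05 (1.07 ± 0.47 higher in colon, FDR = 0.859 by edgeR), as did 775 of all 13697 genes. The difference of *St6galnac6* was 0.020 without K4040 ileum and K4028 colon. For *Fut2* the difference was -0.04 ± 0.17, with an interval of 2 SE on each side from -0.38 to 0.31. The corresponding differences for D3M, given as a description, were 0.65 ± 0.40 for *Cmah*, -0.32 ± 0.18 for *Fut2* and 0.36 ± 0.11 for *Fut8*. They were 0.37 ± 0.17 for *Gne*, 0.02 ± 0.15 for *Nans*, 0.44 ± 0.16 for *Cmas* and -0.42 ± 0.45 for *St3gal4*. *St6gal1* gave -1.20 ± 0.61, *St6galnac1* -1.89 ± 0.91 and *St6galnac6* 0.98 ± 0.52. With 1 rat left out at a time, these ran from 0.43 to 1.11 for *Cmah*, -2.37 to -0.72 for *St6galnac1* and -0.0013 to 1.32 for *St6galnac6*.

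A wider list of glycosylation genes was drawn up around the 10, with 97 further genes for sugar supply, transfer, release and binding. In ileum, D3M against ND, 7 of the 84 tested were higher and 5 lower by edgeR, a share near the 12.5% of all genes called. Among the former were *Fut1*, another enzyme able to make the H antigen (0.68, FDR = 0.0110), *B4galt6*, a galactosyltransferase of glycolipid synthesis (0.80, FDR = 0.00557), and *St3gal5*, the sialyltransferase that makes the first ganglioside (0.60, FDR = 0.0206). *Pmm2*, which supplies mannose phosphate for GDP-sugars (0.43, FDR = 0.0183), and *Mgat1*, which opens N-glycan branching (0.25, FDR = 0.0440), were also higher. Lower genes were *Slc35c1*, the GDP-fucose transporter (-0.32, FDR = 0.0390), *Pofut2*, which fucosylates thrombospondin repeats (-0.31, FDR = 0.0178), *B3gnt5*, which starts lacto-series glycolipids (-0.66, FDR = 0.0188), and *Siglec5*, a sialic acid binding receptor of leukocytes (-0.88, FDR = 0.0352).

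Against D1M, *Fut1* (0.54, FDR = 0.0485) and *B4galt6* (0.66, FDR = 0.0283) were the 2 further genes called in D3M ileum, of 84 tested, where 2.22% of all genes were called. By edgeR, 0 of 84 were called in D1M against ND in either tissue and in either D3M contrast of the colon.

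Between tissues, 35 of the 87 further genes tested were higher in colon and 28 lower, a share near the 73.2% of all genes called. *Slc35a1*, which carries CMP-sialic acid into the Golgi, was higher (1.87, FDR = 1.79e-19) like *Gne*, *Nans* and *Cmas*, and so was *Slc35c1*, its counterpart for GDP-fucose (1.63, FDR = 6.57e-22). *St3gal1*, which sialylates core O-glycans, was higher (2.19, FDR = 4.92e-17) and *St3gal5* lower (-2.65, FDR = 1.10e-11). The sialidase *Neu1* (-1.44, FDR = 1.04e-14) was lower in colon, and the fucosidase *Fuca2* (1.03, FDR = 4.88e-16) and the blood group transferase *Abo* (2.13, FDR = 6.15e-18) were higher.

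Ileal *Cmah* was most like *Eci1*, an isomerase of fatty acid oxidation (r = 0.906), *Tmem209* (r = 0.891) and *Nol8* (r = 0.883), by the Pearson correlation of log2 CPM over 18 ileum libraries among 13026 genes. Colonic *Fut2* was most like *Paqr4* (r = 0.822), *Kcne3*, a potassium channel subunit of the colonic epithelium (r = 0.797), and *Poldip2* (r = 0.791) over 18 colon libraries. These libraries share groups, flow cells and depth, and the values are a description.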

How the data were processed

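RNA from whole distal ileum and proximal colon of 18 rats was sequenced as stranded poly(A) libraries. The authors aligned reads with STAR to rn6 and counted reads per annotated gene in SeqMonk, and they deposited raw counts, which were used here as given. Whether SeqMonk counted by strand is not stated in the labels or methods, so antisense reads may be included. A second deposited table of scaled log2 counts was not used. The 10 genes and all gene lists were chosen with earlier results of these data known.

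Each tissue was fitted with edgeR 4.0.16 in R 4.3.3 (TMM scaling, filterByExpr with a minimum count of 10, robust quasi-likelihood test) over its 18 libraries, with group and flow cell as terms. Colon and ileum were compared over 36 libraries with group and flow cell, and the tissue difference was tested between tissue by group means with flow cell within tissue. P-values were adjusted over all genes and called at 0.05. The share of all genes called was counted for the main edgeR fits only. SE was derived as the log2 fold change over the root of F. The steps were tested on simulated data with known changes of 1.5-fold and 2-fold. They recovered 25.8% and 56.7% of these for D1M against ND in ileum and 34.3% and 70.1% in colon. For the tissue difference in D1M they recovered 16.9% and 49.2%. A gene that was not called may therefore still differ by such amounts. Alternatives were DESeq2 1.42.0, limma voom 3.58.1, other scalings and filters, terms and libraries left out, B cell and epithelium scores and rats as blocks. Printed CPM, and the within flow cell differences made from it, use TMM over all libraries. Group fold changes were fitted with TMM within each tissue, so the within flow cell values are on another scale. All 10 genes were named in each comparison. Of the wider lists, the text names genes from among the 2 smallest FDRs per list (mean log2 CPM of at least 1), and *Fabp6* and *Car1* mark the other tissue. For likeness, the 3 highest correlations were taken. The main tissue fits had no rat term, although colon and ileum came from the same rats, and the rat was a block only in an alternative. Deviations of a rat's ileum and colon libraries from their group means correlated at -0.56 to 0.76, with a median of -0.02.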

Additional observations from a re-analysis of the deposited data

Results flagged for a closer look

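In 8 of 60 groups of 6 libraries, 1 library lay farther from the rest than Dixon's 95% limit allows, where chance flags about 1 in 20 groups. Rat K4028 (ND) gave 4 of the 8. Its colon library was highest for *Cmah* at 196.9 CPM (the others 41.0 to 73.8), for *St6gal1* at 65.6 CPM (8.21 to 21.3) and for *St6galnac1* at 690.5 CPM (20.6 to 116.2), and its ileum library was lowest for *St6galnac1* at 1345 CPM (1538 to 1652). Its colon held *Fabp6* at 8193 CPM, while the remaining rats had 1.89 to 19.9 CPM.

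Rat K4040 (ND) was highest in ileum for *Nans* at 178.1 CPM (101.9 to 128.3) and for *St6galnac6* at 96.5 CPM (11.0 to 21.2), with *Car1* at 3864 CPM. Among D1M colon libraries, K3989 was highest for *St6gal1* at 22.5 CPM (7.90 to 10.0), with the largest B cell sum of the colon (1169 CPM). K3978 was highest for *St6galnac1* at 228.6 CPM (19.3 to 53.1), with *Fabp6* at 3.4 CPM.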

How the results depend on the processing

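In D3M ileum against ND, the contrast used in choosing the genes, *Cmah*, *St6galnac1* and *Fut8* passed in 31 of 31 fits, *St3gal4* in 30 (not without flow cell 2, 1.06, FDR = 0.0584) and *Fut2* in 29 (not with only the 2 groups compared, 0.69, FDR = 0.0645, nor without K4028, 0.55, FDR = 0.0591), as a description. With 1 rat left out at a time, D3M ileum against ND kept 4 to 5 genes called, D3M ileum against D1M 1 to 3, colon against ileum 8 to 9, and the D1M contrasts, the colonic D3M contrasts and the tissue difference 0. DESeq2 called 1 gene in D1M ileum against ND, 4 in D3M ileum against D1M and 1 in D3M colon against ND, limma voom called 1 in the last, and with only the 2 groups compared there was 1 in each of the last 2. The counts in D3M contrasts are a description, and the share of all genes called in these fits was not counted. Without flow cell 2, D3M ileum against D1M kept 1. Upper quartile scaling lost *St3gal4* in colon against ileum (-0.34, FDR = 0.0544) and turned *Fut8* to 0.012. With the rat as a replicate block (pairing colon with ileum), 9 genes were called between tissues and 0 in the tissue difference, so the block changed no call.

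The other reversals were of values that did not pass in either fit, among them the large D1M values of *St6galnac1* in colon and *St6galnac6* in ileum. Without K4028 colon and K4040 ileum, D1M ileum against ND turned to 0.015 for *Gne*, 0.060 for *Nans*, 0.063 for *Cmas* and 0.16 for *St6galnac6*, D1M colon *St6galnac1* to 0.29 and the tissue difference of *Cmah* to 0.18. The epithelium score, added after seeing the data, gave 0.010, 0.019 and 0.055 for ileal *Gne*, *Nans* and *Cmas* in D1M. Without the flow cell term, D1M ileum gave 0.028 for *Cmas* and 0.049 for *St6gal1*. Without flow cell 2, it gave 0.030 for *St6gal1*, and D1M colon gave -0.020 for *St3gal4*. Voom gave a tissue difference of 0.15 for *Cmah* and 0.11 for *Fut2*. With 1 rat left out at a time, D1M ileum ran from -0.14 to 0.063 for *Cmas*, -0.18 to 0.015 for *Gne*, -0.17 to 0.060 for *Nans*, -0.11 to 0.033 for *St6gal1* and -1.01 to 0.16 for *St6galnac6*. D1M colon *St6galnac1* ran from -1.48 to 0.29, and the tissue difference from -0.43 to 0.17 for *Cmah*, -0.13 to 0.074 for *Fut2* and -1.89 to 0.015 for *St6galnac1*. Except where a rat or library is named, the cause was not tested.

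The lowest count of any of the 10 in a library was 81, for *St6gal1* in colon. Groups of 6 rats and unequal flow cells limit the precision of the group contrasts, and the ND rats differ in age from the others.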
